A study of Sus scrofa with 32 samples.

Results

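Skatole was given in the labels for 12 of the 32 crossbred male pigs whose testis messenger RNA was sequenced, and these 12 pigs were split at 0.1 mg/kg. There were 5 pigs above that threshold and 7 below it. The pigs just outside and just inside the split had 0.083 and 0.116 mg/kg. The breeds behind these Danish crosses were Landrace, Yorkshire and Duroc, and slaughter was at about 100 kg. Age was not used here, and the labels do not say in which tissue skatole was measured. The higher group held 4 pigs on the control diet and 1 on a diet with 15% chicory, a root feed given for 3 days before slaughter. The lower group held 5 control and 2 chicory pigs. By the submitters' grouping on androstenone and skatole (AS), the higher group held 4 High AS and 1 Low AS pigs, and the lower group 5 High AS and 2 Low AS pigs. The question was which testis transcripts differed between pigs with more and less skatole.

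Skatole, or 3-methylindole, is made by bacteria in the hindgut from the amino acid tryptophan, is absorbed, and is cleared mainly by oxidation and conjugation in the liver. What escapes clearance is stored in fat, where skatole and the testis steroid androstenone together give the odour called boar taint. The testis does not make skatole. Leydig cells, the steroid-producing cells between the seminiferous tubules, make androstenone from cholesterol, and in the pig liver androstenone and other sex steroids are known to affect enzymes that oxidise skatole.

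The 5 higher pigs had 0.116, 0.159, 0.239, 0.24 and 0.615 mg/kg skatole. The 7 lower pigs ranged from 0 to 0.083 mg/kg. The value of 0.615 mg/kg stood well above all others, and results are given without that pig where it moved them most. Carcass weight was 94.8 kg ± 5.4 in the higher group (SD, n = 5) and 88.0 kg ± 7.73 in the lower group (SD, n = 7), a difference that did not pass a two-sided exact permutation test (p = 0.125, adjusted p = 0.312 over 5 measures). Over the 12 pigs, carcass weight had a Spearman's rho of 0.54 with skatole (exact permutation p = 0.075) and a Pearson's r of 0.63 with the log2 of skatole plus 0.02 mg/kg (permutation p = 0.0274). Neither passed after adjustment over 5 measures (adjusted p = 0.375 and 0.137). Without the pigs with 0.24 and 0.615 mg/kg, which lay farthest from the median, rho was 0.71 and r 0.79. That choice was a near tie. The pig with 0.24 mg/kg, left out, weighed 89.9 kg, and the pig with 0.239 mg/kg, kept, had the heaviest carcass, 101.9 kg. Among the 8 pigs with shallower libraries rho was 0.38.

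No relation of androstenone to skatole passed a test. Androstenone was 1.4 mg/kg ± 1.42 in the higher group (SD, n = 5) and 2.78 mg/kg ± 2.86 in the lower group (SD, n = 7; two-sided exact permutation p = 0.365, adjusted p = 0.608), with a rho of -0.0634 and an r of -0.0455 over the 12 pigs (exact permutation p = 0.851, adjusted p = 0.851, and permutation p = 0.886, adjusted p = 0.984). Without the pigs with 0.24 and 0.615 mg/kg both were 0.28. Here too the pig with 0.24 mg/kg, left out, and the pig with 0.239 mg/kg, kept, differed, with 0 and 3.75 mg/kg androstenone. The pig with the most skatole had 0.67 mg/kg androstenone, and the pig with the most androstenone, 7.77 mg/kg, had 0.083 mg/kg skatole. The sire's breeding value for androstenone was -0.22 ± 0.312 in the higher group (SD, n = 5) and 0.137 ± 0.275 in the lower group (SD, n = 7), which missed the threshold (two-sided exact permutation p = 0.0682, adjusted p = 0.312). Pigs of 1 sow shared this value, so there were 9 distinct values among the 12 pigs, and the test, which took pigs as independent, may give too small a p. Within the higher group 4 of the 5 pigs had a sire with a negative breeding value, against 1 of the 7 lower pigs. The groups overlapped in all 3 measures.

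**Figure D1:**
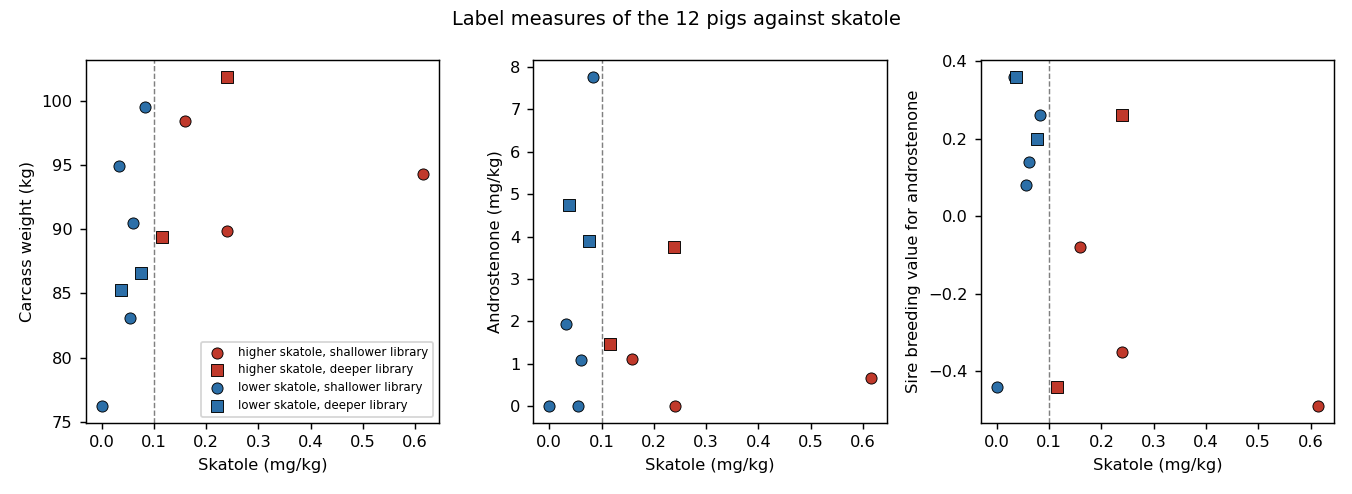
Carcass weight in kg, androstenone in mg/kg and the sire's breeding value for androstenone on the vertical axes, against skatole in mg/kg, 1 point per pig; red points are the 5 pigs above 0.1 mg/kg (dashed line), blue points the 7 below, squares deeper and circles shallower libraries. The pig at 0.615 mg/kg stands alone on the right, with 94.3 kg carcass weight and 0.67 mg/kg androstenone.

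Counts in genes ranged from 2544934 to 15015113 per pig and fell into 4 deeper libraries of 10585625 or more (2 higher and 2 lower pigs) and 8 shallower libraries of 4913114 or fewer (3 higher and 5 lower pigs), so this library set was a term in the model. The 12 pigs came from 9 sows. Of these, 2 sows had a pig in each group, and in both litters the higher pig had a deeper and the lower pig a shallower library, so skatole group and library set cannot be told apart within those litters. The third sow with 2 pigs had 1 deeper and 1 shallower library, both lower pigs. The library of the lower pig with 0.076 mg/kg held 1709 CPM (counts scaled to a common library size) of albumin (ALB) against 0 to 65.2 CPM in the other 11. It also held 67.9 CPM of TTR and 88.1 CPM of AHSG, plasma proteins made by the liver, where the other 11 libraries had at most 1.95 and 3.05 CPM. The pig with 0.116 mg/kg had the next highest albumin. Results that rest on the library with 0.076 mg/kg are given with and without it. Testis markers were present in all 12 libraries, for example 270.0 to 2934 CPM of CYP17A1 and 7263 to 25827 CPM of the sperm protamine PRM1, while the epididymal markers CRISP1, LCN8 and DEFB1 were at 0 in 11, 10 and 8 libraries.

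No gene passed the test between higher and lower skatole. Of 12209 genes tested with edgeR's quasi-likelihood test, 0 had an adjusted p under 0.05 (0% of those tested; smallest adjusted p = 1), and DESeq2 and limma voom also called 0. With sow as a fixed block, a fit with 1 residual degree of freedom, edgeR called 3 genes, ENSSSCG00000002400, ENSSSCG00000002626 and ENSSSCG00000027712. None of these had an unadjusted p under 0.05 without the block. In that fit the group difference comes from 3 litters. The difference in the 2 litters that span both groups is taken less that between the deeper and shallower lower pig of the third. Pigs without a litter mate, those with 0.076 and 0.615 mg/kg among them, do not enter the group difference. Without the block edgeR gave 228 genes at an unadjusted p under 0.05 (1.87%), 164 higher (1.34%) and 64 lower (0.524%) with more skatole. At that level 253 were found by DESeq2 and 208 by limma voom. An estimate above 0 was found for 53.8% of the genes and below 0 for 46.2%, and the median log2 fold of all genes was 0.02. The CPM of all 5 higher pigs lay above those of all 7 lower pigs in 2 genes (0.0164%), and below them in 0. The values that follow therefore describe levels and estimates, none of which passed after adjustment over all genes (adjusted p = 1 in edgeR for every gene named from this comparison).

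Genes of cholesterol synthesis and uptake had higher estimates in the pigs with more skatole. Of 26 measured genes of this list, 23 had an estimate above 0, 9 of them at an unadjusted p under 0.05, and the median log2 fold was 0.43. Over all genes these were 53.8%, 1.34% and 0.02. None of the 26 passed after adjustment. In 17 of the 26 the highest level of the 12 pigs was in the pig with 0.615 mg/kg, which held the highest level of 13.8% of all genes tested. Without that pig, 20 of 26 estimates were above 0, 1 had an unadjusted p under 0.05, and the median was 0.19. The same pig had the highest sum of Leydig cell markers, given below, whose part in the cholesterol genes was not tested.

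HSD17B7, which reduces the 3-keto group of sterol intermediates on the way to cholesterol and can also convert oestrone to oestradiol, had the smallest p of all genes. Its level was 22.8, 21.8, 16.2, 13.3 and 38.9 CPM in the higher pigs, in order of rising skatole, and 6.86 CPM at the lowest, 9.7 at the median and 13.2 at the highest in the lower pigs. All 5 higher pigs lay above all 7 lower pigs, though the nearest pair, 13.3 and 13.2 CPM, almost touched. The log2 fold was 1.28 (SE 0.26; edgeR unadjusted p = 0.000141, adjusted p = 1). It was 1.31 in the shallower and 1.23 in the deeper libraries alone, and 0.99 without the pig with 0.615 mg/kg. Over its 35 alternatives the smallest adjusted p was 0.0519, by DESeq2. The other gene without overlap, ENSSSCG00000020848, had no symbol and a log2 fold of 0.65 (SE 0.27; edgeR unadjusted p = 0.0254).

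TM7SF2, a sterol C14-reductase, had 22.4, 23.5, 18, 5.94 and 41.8 CPM in the higher pigs and 5.36, 9.9 and 18.2 CPM at the lowest, median and highest of the lower pigs. Of the higher pigs 3 lay above all lower pigs, and the pig with 0.24 mg/kg lay near the bottom of the lower range. The log2 fold was 1.08 (SE 0.37; edgeR unadjusted p = 0.00947). MSMO1, which removes methyl groups from sterol precursors, had 139, 86.8, 62.3, 35.3 and 234 CPM against 41.9, 56.4 and 113 CPM, with a log2 fold of 0.96 (SE 0.35; edgeR unadjusted p = 0.0149). The pig with 0.24 mg/kg was below every lower pig for MSMO1. Without the pig with 0.615 mg/kg the log2 folds of TM7SF2 and MSMO1 were 0.66 and 0.44. Among the other 6 genes of this list at an unadjusted p under 0.05, named here after their values were seen, were SCARB1, the receptor that takes up cholesterol from high-density lipoprotein (log2 fold 0.88), and HMGCS1 (0.57), FDPS (0.33) and IDI1 (0.82), enzymes of the mevalonate pathway that leads to cholesterol.

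Steroid and Leydig cell genes also had estimates mostly above 0, and 1 pig stood far above the rest. Of 12 measured Leydig cell markers, 12 had an estimate above 0 (against 53.8% of all genes), 3 at an unadjusted p under 0.05 (against 1.34%). The median log2 fold of these markers was 0.49. Summed over the list they gave 2245, 2404, 1560.2, 1268 and 6015 CPM in the higher pigs, and 801 CPM at the lowest, 1500.0 at the median and 2377 at the highest in the lower pigs. The pig with 0.615 mg/kg was far above all others, the pig with 0.159 mg/kg lay just above the lower range, and the other 3 lay inside it. Without the pig with 0.615 mg/kg, 7 of 12 estimates were above 0, 0 at an unadjusted p under 0.05, and the median was 0.18. Bulk tissue cannot tell more Leydig cells from more RNA per Leydig cell.

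CYP17A1, the enzyme that commits pregnenolone to androgens and, in the boar, to 16-androstenes such as androstenone, had 949, 1096, 749, 429 and 2934 CPM in the higher pigs. In the lower pigs it had 270.0, 631 and 1009 CPM at the lowest, median and highest. Only the pigs with 0.159 and 0.615 mg/kg lay above all lower pigs. The log2 fold was 1.12 (SE 0.36; edgeR unadjusted p = 0.00659), and 0.57 without the pig with 0.615 mg/kg.

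CYP11A1, which makes pregnenolone from cholesterol in the first step of steroid synthesis, had 177, 216, 162, 69.5 and 439 CPM against 54.2, 110.3 and 197 CPM. Its log2 fold was 0.95 (SE 0.34; edgeR unadjusted p = 0.0124), and 0.48 without that pig. INSL3, a peptide hormone of Leydig cells, had 923, 960.1, 538, 625 and 2287 CPM against 318, 582 and 1164 CPM. Its log2 fold was 0.76 (SE 0.31; edgeR unadjusted p = 0.0274), and 0.32 without that pig. For INSL3 only the pig with 0.615 mg/kg was above every lower pig.

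Other genes of the androgen and androstenone pathway differed less. CYB5A, the cytochrome b5 that drives CYP17A1 towards 16-androstenes, had a log2 fold of 0.42 (SE 0.27), SRD5A1, the 5-alpha-reductase of the last step to androstenone, 0.36 (SE 0.28), HSD17B3, which makes testosterone, 0.34 (SE 0.31), and LHCGR, the receptor for luteinising hormone, 0.24 (SE 0.47). CYB5A was at 0.13 and SRD5A1 at 0.23 without the pig with 0.615 mg/kg. The estimates for HSD17B3 and LHCGR turned to -0.12 and -0.16 without the pig with 0.615 mg/kg. HSD11B2, which inactivates glucocorticoids, had 9.48, 47.3, 7.56, 12.6 and 56.9 CPM in the higher pigs and 6.29, 11.2 and 15.3 CPM in the lower pigs, with 2 higher pigs above all lower pigs and a log2 fold of 1.13 (SE 0.36; edgeR unadjusted p = 0.00589). It was 1.71 in the shallower and 0.00654 in the deeper libraries alone. Over the steroidogenesis list, 17 of 23 measured genes had an estimate above 0, 5 at an unadjusted p under 0.05, with a median of 0.24. Over all genes 53.8% had an estimate above 0 and 1.34% were higher at that level. The list median was 0.03 without the pig with 0.615 mg/kg. HSD17B7 is in this list and in the cholesterol list, so the counts of the lists are not separate.

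**Figure D2:**
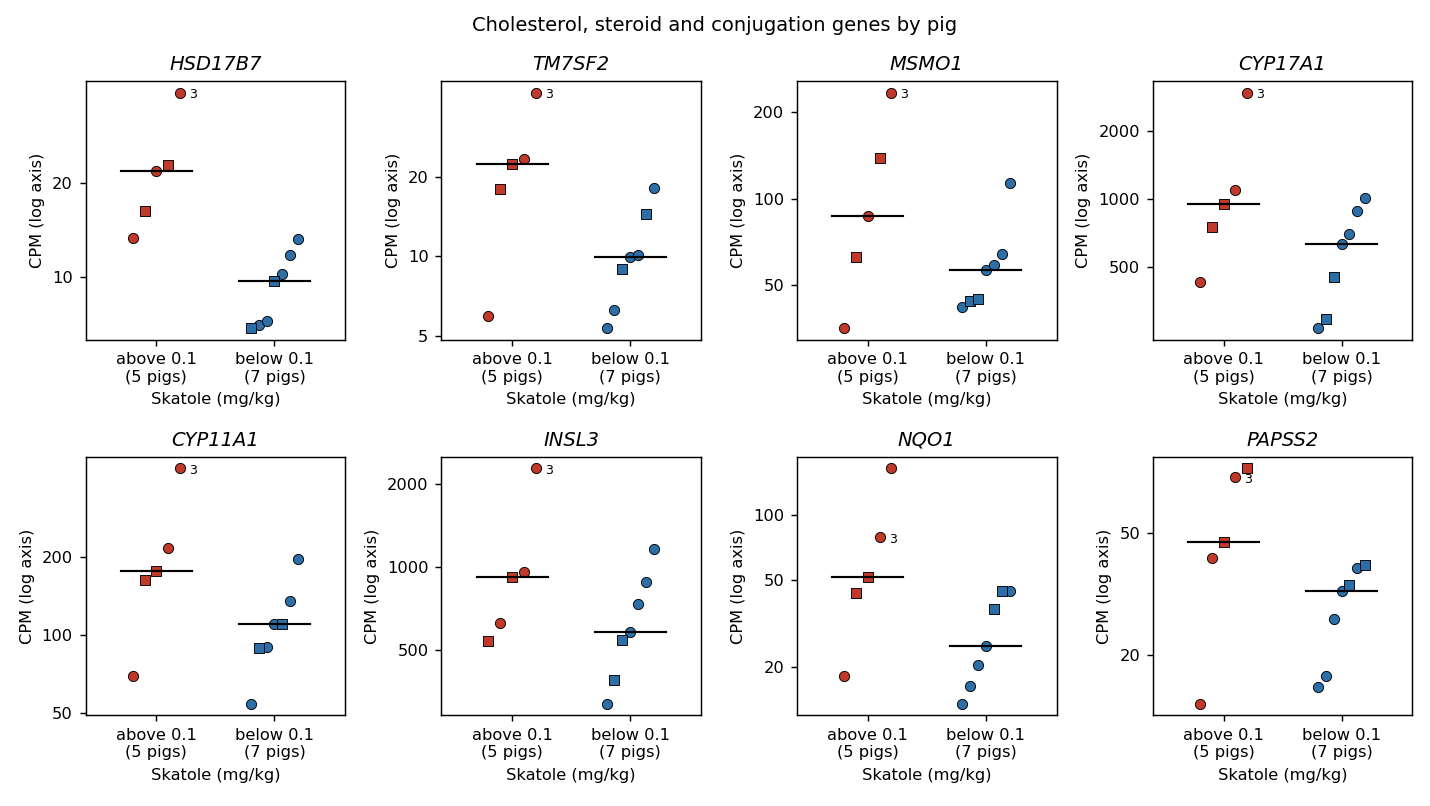
CPM per pig on a log axis for 8 genes, with the 5 pigs above 0.1 mg/kg skatole in red and the 7 below in blue; squares are deeper and circles shallower libraries, bars are medians, and the digit 3 marks the pig with 0.615 mg/kg. That pig is the highest point for HSD17B7, TM7SF2, MSMO1, CYP17A1, CYP11A1 and INSL3, and the groups overlap for every gene shown except HSD17B7.

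Enzymes that handle skatole in the liver were expressed at low to moderate levels in these testes. Of 18 measured genes of skatole and indole oxidation and conjugation, 15 had an estimate above 0 (against 53.8% of all genes), 3 at an unadjusted p under 0.05 (against 1.34%), with a median log2 fold of 0.17. Without the pig with 0.615 mg/kg the figures were 14, 1 and 0.04. NQO1, a quinone reductase induced by oxidative stress and by the aryl hydrocarbon receptor, had 51.7, 164, 43.9, 18.2 and 79 CPM in the higher pigs and 13.5, 24.8 and 44.8 CPM in the lower pigs. Its log2 fold was 1.3 (SE 0.42; edgeR unadjusted p = 0.00623). It was 1.85 in the shallower and 0.22 in the deeper libraries alone, and 0.69 without the pig with 0.159 mg/kg, and -0.0533 with sow as a fixed block.

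PAPSS2, which makes the sulfate donor used in conjugation, had 80.7, 41.5, 46.5, 14 and 75.5 CPM against 15.8, 32.4 and 39.3 CPM. Of the higher pigs 4 lay above all lower pigs, and the pig with 0.24 mg/kg lay below all of them. The log2 fold was 0.76 (SE 0.32; edgeR unadjusted p = 0.0276), and 0.39 without the pig with 0.615 mg/kg. EPHX1, an epoxide hydrolase, had a log2 fold of 0.62 (SE 0.27; edgeR unadjusted p = 0.0347), and 0.20 without the pig with 0.615 mg/kg.

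CYP2E1, the P450 best known for oxidising skatole in pig liver, had 7.34, 3.59, 5.97, 4.89 and 5.72 CPM in the higher pigs and 3.24, 4.08 and 43.7 CPM at the lowest, median and highest of the lower pigs. Its log2 fold was -0.78 (SE 0.51; edgeR unadjusted p = 0.148). The value of 43.7 CPM was in the library that held albumin, and without it the log2 fold was 0.20. AOX1, an aldehyde oxidase that takes part in skatole breakdown in the liver, FMO1, a flavin monooxygenase, and AHR, the aryl hydrocarbon receptor that binds indoles, stood at log2 folds of 0.13 (SE 0.17), 0.32 (SE 0.53) and 0.06 (SE 0.34). CYP2A19, CYP1A1 and the receptor NR1I2 had too few counts to test, with CYP2A19 at 0 in 10 of the 12 libraries. CYP2C33, CYP3A29, CYP1B1 and SULT1A1 carried no identifier under their symbol and were not analysed here.

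No gene of the xenobiotic response lists passed the test. Of 20 measured glutathione and NRF2 genes 11 had an estimate above 0, 2 at an unadjusted p under 0.05, NQO1 and the glutathione transferase GSTO1 (log2 fold 0.67, SE 0.29, and 0.37 without the pig with 0.615 mg/kg), with a list median of 0.06. The aryl hydrocarbon receptor list had 6 of 10 estimates above 0 (median 0.06) and the nuclear receptor list 9 of 18 (median -0.00117), with 1 and 0 at an unadjusted p under 0.05. ESR1, the oestrogen receptor alpha, led the nuclear receptors with a log2 fold of -0.63 (SE 0.34; edgeR unadjusted p = 0.0839). In tryptophan metabolism, 5 of 12 estimates between the groups were above 0, while 9 of 12 slopes on the rank of skatole were. SLC6A19, a transporter of neutral amino acids including tryptophan, had 9.81, 5.25, 5.88, 10.5 and 9.16 CPM in the higher pigs and 8.76, 11.6 and 27.5 CPM in the lower pigs, with a log2 fold of -0.74 (SE 0.32; edgeR unadjusted p = 0.0313).

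Among all genes with a symbol, the 10 with the smallest p and more counts in the higher group were HSD17B7, BYSL, SPHKAP, AEBP1, ANKFN1, ATP2C2, A2M, OXCT1, TGFB3 and DAB2. BYSL, a factor in assembly of the small ribosomal subunit, had 28.3, 30.4, 24.6, 14 and 54.9 CPM in the higher pigs and 6.46, 12.6 and 19.5 CPM in the lower pigs, with a log2 fold of 1.25 (SE 0.29). SPHKAP, a protein that anchors protein kinase A, had 13.1, 23.5, 17.5, 27.6 and 33.8 CPM against 0.895, 9.33 and 15.8 CPM, with a log2 fold of 1.53 (SE 0.37). In both genes 4 of the 5 higher pigs lay above all 7 lower pigs. ATP2C2, a calcium and manganese pump of the Golgi, had 5.52, 8.29, 5.23, 5.59 and 4.01 CPM against 0.243, 1.35 and 4.35 CPM, with a log2 fold of 1.65 (SE 0.45).

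For ATP2C2 the pig with 0.615 mg/kg was the lowest of the higher group. ANKFN1 had 23.8, 137, 20.9, 14.7 and 85.8 CPM against 12.9, 17.8 and 20.4 CPM, highest in the pigs with 0.159 and 0.615 mg/kg, and a log2 fold of 1.65 (SE 0.42) that was 2.37 in the shallower and 0.21 in the deeper libraries alone. AEBP1, a matrix protein, had a log2 fold of 1.34 (SE 0.34), TGFB3, a growth factor of the transforming growth factor beta family, 1.46 (SE 0.43), OXCT1, which activates ketone bodies for use as fuel, 0.95 (SE 0.28), A2M, a protease inhibitor, 0.93 (SE 0.27), and DAB2, an adaptor for receptor endocytosis, 0.85 (SE 0.25). Without the pig with 0.615 mg/kg these 5 estimates were 0.86, 0.84, 0.60, 0.62 and 0.64, all still above 0. In the deeper libraries alone AEBP1 was at 0.76 and OXCT1 at 0.58.

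In the other direction the genes with the smallest p included LRRC24, ACTA1, DPYD, AMBP, RFESD, TTLL9, SH3RF2, PTBP3 and F2. LRRC24 had 1.3, 1.66, 1.77, 1.4 and 1.72 CPM in the higher pigs and 1.69, 3.85 and 7.28 CPM in the lower pigs, with a log2 fold of -1.35 (SE 0.39). The higher pigs were close together at the bottom of the lower range, and without the lower pig with 0.076 mg/kg the log2 fold was -0.85. ACTA1, skeletal muscle actin, had 25.5, 10.8, 14.6, 16.8 and 9.73 CPM against 11.7, 34.4 and 60.3 CPM, with a log2 fold of -1.22 (SE 0.37).

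DPYD, the first enzyme of pyrimidine breakdown, had a log2 fold of -0.94 (SE 0.31), PTBP3, an RNA-binding protein, -0.77 (SE 0.30; -0.47 without the lower pig with 0.037 mg/kg), SH3RF2 -0.66 (SE 0.25), RFESD -0.59 (SE 0.20), and TTLL9, of the tubulin tyrosine ligase-like family, -0.56 (SE 0.20). AMBP and F2 encode plasma proteins of the liver, the precursor of alpha-1-microglobulin and prothrombin. Their log2 folds of -2.59 (SE 0.86) and -1.50 (SE 0.58) rested on the library that held albumin, with 74.3 CPM of AMBP and 19.7 CPM of F2 against at most 7.3 and 3.18 CPM in the other 11. Without it the log2 folds were -0.53 and -0.37. With sow as a fixed block the estimates of LRRC24, ACTA1, SH3RF2 and AMBP turned to 0.32 (SE 1.06), 0.46 (SE 0.58), 0.31 (SE 0.63) and 2.31 (SE 0.96). That fit draws only on pigs with a litter mate in the comparison, so the library that held albumin does not enter these estimates.

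**Figure D3:**
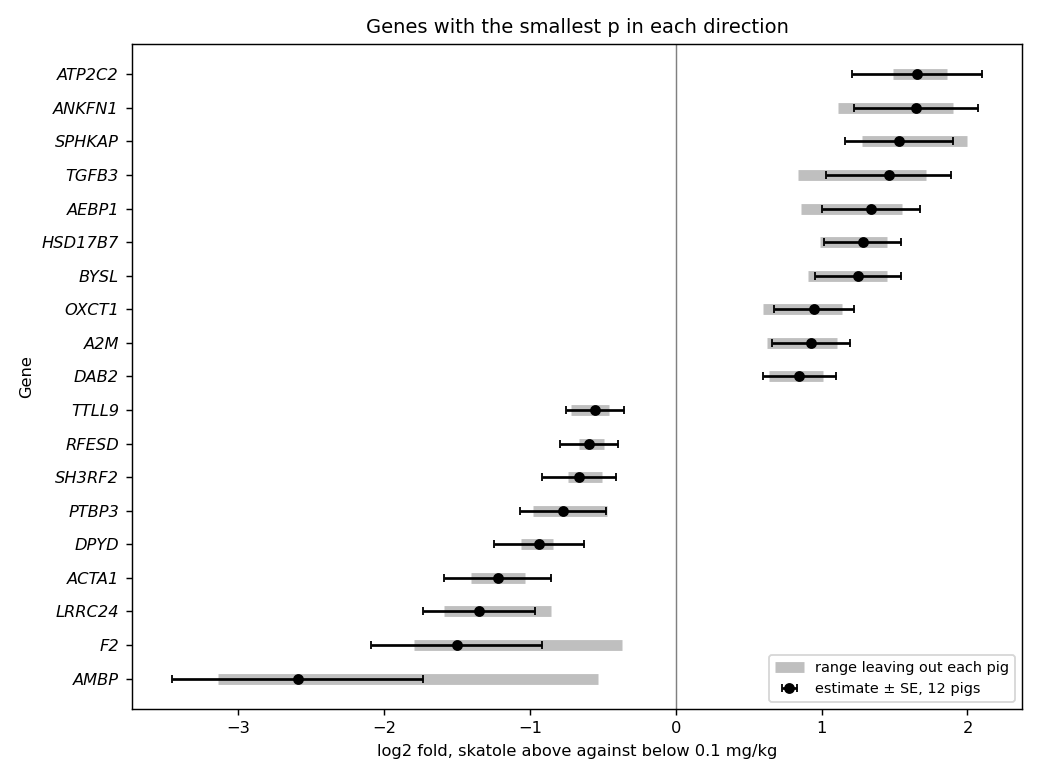
Log2 fold of skatole above against below 0.1 mg/kg for the named genes with the smallest p in each direction; points are estimates with their SE over 12 pigs, and grey bars span the estimates when each pig is left out in turn. None of the bars drawn crosses 0, and those of AMBP and F2 reach -0.53 and -0.37.

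Skatole was also taken as a rank over the 12 pigs. Along the rank 0 genes passed in edgeR (0%; smallest adjusted p = 1), 327 had an unadjusted p under 0.05 (2.68%), of which 249 had a rising (2.04%) and 78 a falling slope (0.639%). By limma voom 0 passed and 240 were at that unadjusted level, and by DESeq2 361 were and 1 passed. That 1 was ENSSSCG00000024122, with a slope of 0.27 log2 per rank (SE 0.056; DESeq2 adjusted p = 0.0121, edgeR unadjusted p = 0.00013). With sow as a fixed block, where the slope comes from 3 litters, edgeR called 86 genes, with 1 residual degree of freedom. The pig with 0.615 mg/kg does not enter that slope. ENSSSCG00000024122, CYP17A1 and SPHKAP were among the 86 (adjusted p = 0.00633, 0.0219 and 0.0327), and had low edgeR unadjusted p without the block (0.00013, 0.00426 and 0.000565). Others did not, among them PECAM1 and COL3A1 (edgeR unadjusted p = 0.174 and 0.483). The smallest adjusted p, 3.82e-13, was that of ENSSSCG00000024011, at 0 counts in 2 higher and 3 lower pigs. Its edgeR unadjusted p without the block was 0.869. Apart from this block, the smallest adjusted p of each alternative lay between 0.0121 and 1. Without the pig with 0.615 mg/kg, edgeR called 0 genes along the rank, and 125 had an unadjusted p under 0.05. Spearman's rho gave 0 genes after adjustment (0%; exact permutation test), and 198 at an unadjusted p under 0.05 (1.62%), 139 positive (1.14%) and 59 negative (0.483%), where 50.8% of all genes had a positive rho. Pearson's r with the log2 of skatole gave 428 at a permutation p under 0.05 and 0 after adjustment.

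Genes with the highest rank correlation were C8orf58, SPHKAP, SELENBP1, RIPK3 and RABEP2, chosen for that rank, so their values are a description. C8orf58 had 2.4, 3.04, 3.55, 4.19 and 3.43 CPM in the higher pigs and 1.22, 2.25 and 2.9 CPM in the lower pigs, with rho 0.87 and r 0.79 (exact permutation p = 0.000419 and permutation p = 0.00162, adjusted p = 1 and 1). The 4 pigs with 0.159 mg/kg or more lay above all 7 lower pigs. Without the pigs with 0.24 and 0.615 mg/kg, rho was 0.82 and r 0.76, and in the 8 shallower libraries rho was 0.90.

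SELENBP1, a selenium-binding protein that oxidises methanethiol in man, had 34.9, 38.7, 32.5, 35.6 and 70.1 CPM against 17.8, 27.3 and 43.6 CPM, with rho 0.81 and r 0.86 (exact permutation p = 0.00218 and permutation p = 0.00071). RIPK3, a kinase of the cell death form called necroptosis, had 4.74, 4.15, 3.45, 2.79 and 5.72 CPM against 0.45, 1.82 and 4.55 CPM, with rho 0.81 and r 0.73. RABEP2, an endosome protein, had rho 0.78 and r 0.75, although its log2 fold between the groups was 0.32 (SE 0.29). Without the 2 farthest pigs rho was 0.77, 0.81 and 0.76 for SELENBP1, RIPK3 and RABEP2, and 0.67 for SPHKAP.

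At the other end were SOAT2, GTF2H3, TBCK and VRK2. SOAT2, which joins cholesterol to fatty acids for storage, had 6.76, 5.81, 7, 3.49 and 2 CPM in the higher pigs and 5.36, 8.05 and 11.7 CPM in the lower pigs, with rho -0.76 and r -0.83 (exact permutation p = 0.00624 and permutation p = 0.00091, adjusted p = 1 and 1). It was lowest in the pig with the most skatole, the pig in which most cholesterol synthesis genes were highest. GTF2H3, a subunit of the transcription factor TFIIH, had rho -0.76 and r -0.67, TBCK -0.75 and -0.74, and VRK2, a protein kinase, -0.75 and -0.68. Without the 2 farthest pigs the rho of these 4 genes was -0.58, -0.59, -0.62 and -0.68 in that order. HSD17B7 had rho 0.71 and r 0.70, CYP17A1 0.45 and 0.66, and INSL3 0.44 and 0.66.

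**Figure D4:**
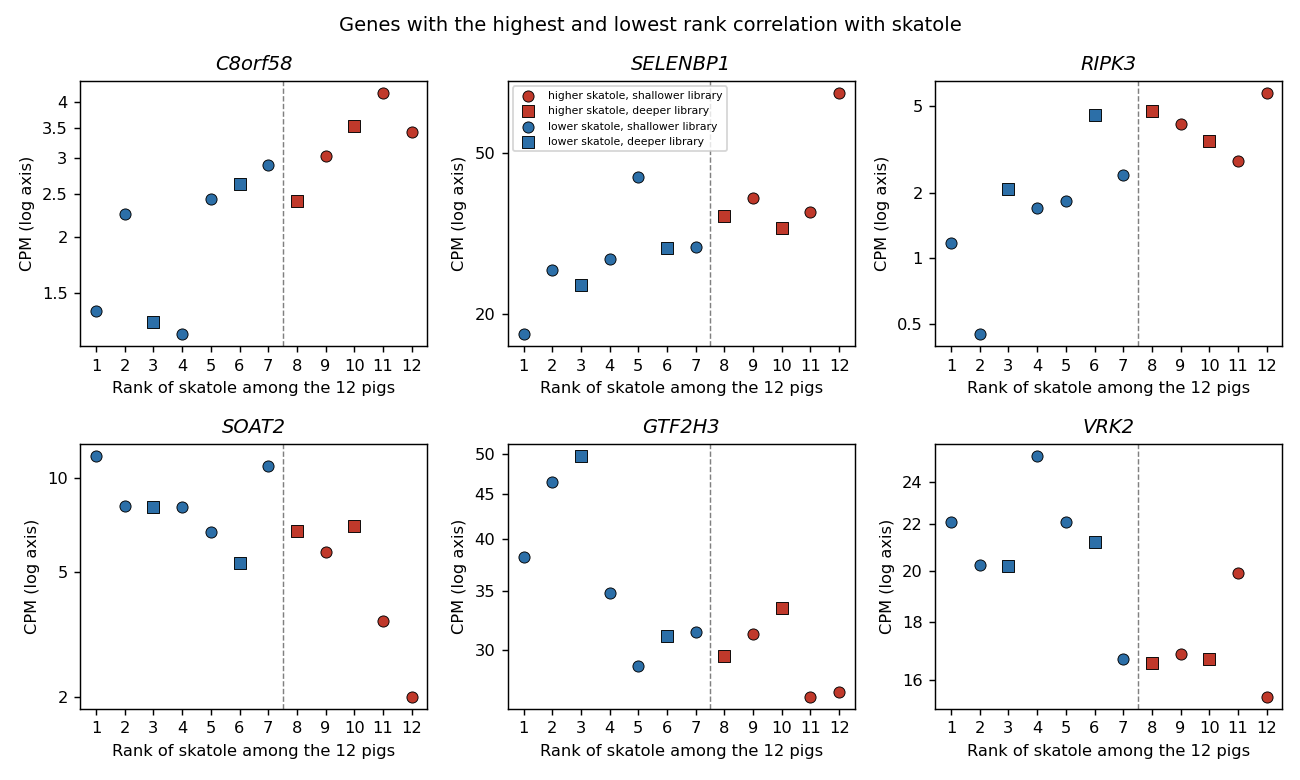
CPM on a log axis against the rank of skatole among the 12 pigs (1 lowest, 12 highest) for 3 genes of the highest and 3 of the lowest rank correlation; red are pigs above and blue below 0.1 mg/kg (dashed line), squares deeper and circles shallower libraries. C8orf58, SELENBP1 and RIPK3 run upwards with rho 0.87, 0.81 and 0.81, and SOAT2, GTF2H3 and VRK2 downwards with rho -0.76, -0.76 and -0.75.

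No gene of the germ cell lists passed the test. Spermatocyte genes had 11 of 22 estimates above 0 (median log2 fold 0.00384), spermatogonia genes 3 of 8 (-0.02), round spermatid genes 17 of 21 (0.11) and elongating spermatid genes 6 of 24 (-0.11), with 0 genes at an unadjusted p under 0.05 in any of the 4 lists. Leaving out each pig in turn, the counts ran from 7 to 14, 1 to 5, 11 to 18 and 3 to 14 in that order. On the rank of skatole, 6, 3, 13 and 5 slopes were above 0, in the same order. Over all genes 53.8% of the estimates between the groups were above 0. The elongating median was 0.0284 without the lower pig with 0.033 mg/kg, which was highest for 14 of the 24 genes, and the round spermatid median was 0.00828 without the pig with 0.24 mg/kg. With sow as a fixed block 4 of 21 round and 19 of 24 elongating spermatid estimates were above 0, beside 52.7% of all genes. Those estimates take in the difference between the lower litter mates with 0.037 and 0.033 mg/kg, the latter the pig highest for 14 elongating genes. SUN5, which couples the sperm head to the tail, led the round spermatid genes with a log2 fold of 0.38 (SE 0.19; -0.34 in the deeper libraries alone), MEIOB, a meiotic recombination factor, the spermatocyte genes with -0.33 (SE 0.17), and UCHL1, a ubiquitin hydrolase of spermatogonia, its list with -0.34 (SE 0.26). FSCN3, an actin bundler of spermatids, had a log2 fold of -0.31 (SE 0.20), and TNP2, a transition protein of sperm chromatin, had 2819.7, 2412, 4431, 3666 and 1422 CPM against 1540.0, 3481 and 6951 CPM, and a log2 fold of -0.40 (SE 0.32). Summed elongating spermatid genes were lowest in the higher group in the pig with 0.615 mg/kg, at 28751 CPM, where the Leydig sum was highest. The lowest sum of the 7 lower pigs, 25950 CPM, lay below that.

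Somatic and stress lists also had no member past the test. Sertoli cell markers had 6 of 11 estimates between the groups above 0 and a median of 0.08, and 10 of 11 slopes on the rank above 0. Their sum was highest in the pig with 0.615 mg/kg, at 4538 CPM against at most 3211 CPM in the others. Without that pig 3 of 11 were above 0. TF, transferrin, which Sertoli cells and the liver both make, had 242 CPM in the library with albumin and at most 7.86 CPM elsewhere. That library had the highest level of 4 of the 11 Sertoli markers. Without it 11 of 11 Sertoli estimates were above 0, and the part of liver transcripts in this was not tested. Endothelial markers had 6 of 7 estimates above 0 (median 0.29) and peritubular and smooth muscle markers 6 of 9 (0.29), and both medians were 0.11 without the pig with 0.615 mg/kg. The endothelial median was 0.51 without the library with albumin.

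PECAM1, an endothelial adhesion molecule, had 60.5, 6.08, 11.9, 8.03 and 40.3 CPM in the higher pigs and 8.22, 14 and 19.2 CPM in the lower pigs. The pigs with 0.116 and 0.615 mg/kg lay above all lower pigs and 2 other higher pigs below them, and KDR, a receptor for vascular endothelial growth factor, had the same 2 pigs highest, at 34.2 and 21.5 CPM. For the muscle genes TAGLN and CALD1 the log2 fold was 0.45 (SE 0.27) and 0.42 (SE 0.23), and 0.11 and 0.23 without the pig with 0.615 mg/kg. Without the library that held albumin these 2 estimates were 0.71 and 0.45. Macrophage and immune markers had 6 of 8 above 0 (0.15), interferon genes 8 of 12 (0.18), led by MX1 with 0.78 (SE 0.45), and immediate early and heat shock genes 10 of 13 (0.15), led by ATF3, a stress-induced transcription factor, with 0.86 (SE 0.41; edgeR unadjusted p = 0.049). The interferon median was -0.00549 and ATF3 was at 0.24 without the pig with 0.615 mg/kg. Without the library that held albumin they were 0.35 and 1.1. The immediate early median was -0.0121 without the pig with 0.116 mg/kg. MX1 was at 1.51 without the library that held albumin, and in the deeper libraries alone MX1 was at -0.0737 and ATF3 at 0.22.

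Mitochondrially encoded genes had 12 of 13 estimates above 0 with a median of 0.17, led by ND4L, a subunit of respiratory complex I (log2 fold 0.40, SE 0.28). That count was 0 of 13, with a median of -0.36, without the pig with 0.159 mg/kg. Their summed level ranged from 15603 to 154392 CPM and was highest in the lower pig whose library held albumin. Blood and epididymal genes were too few for a count, with HBB alone tested in blood (log2 fold 0.03) and 2 genes in epididymis, both with estimates below 0 (median -0.29).

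**Figure D5:**
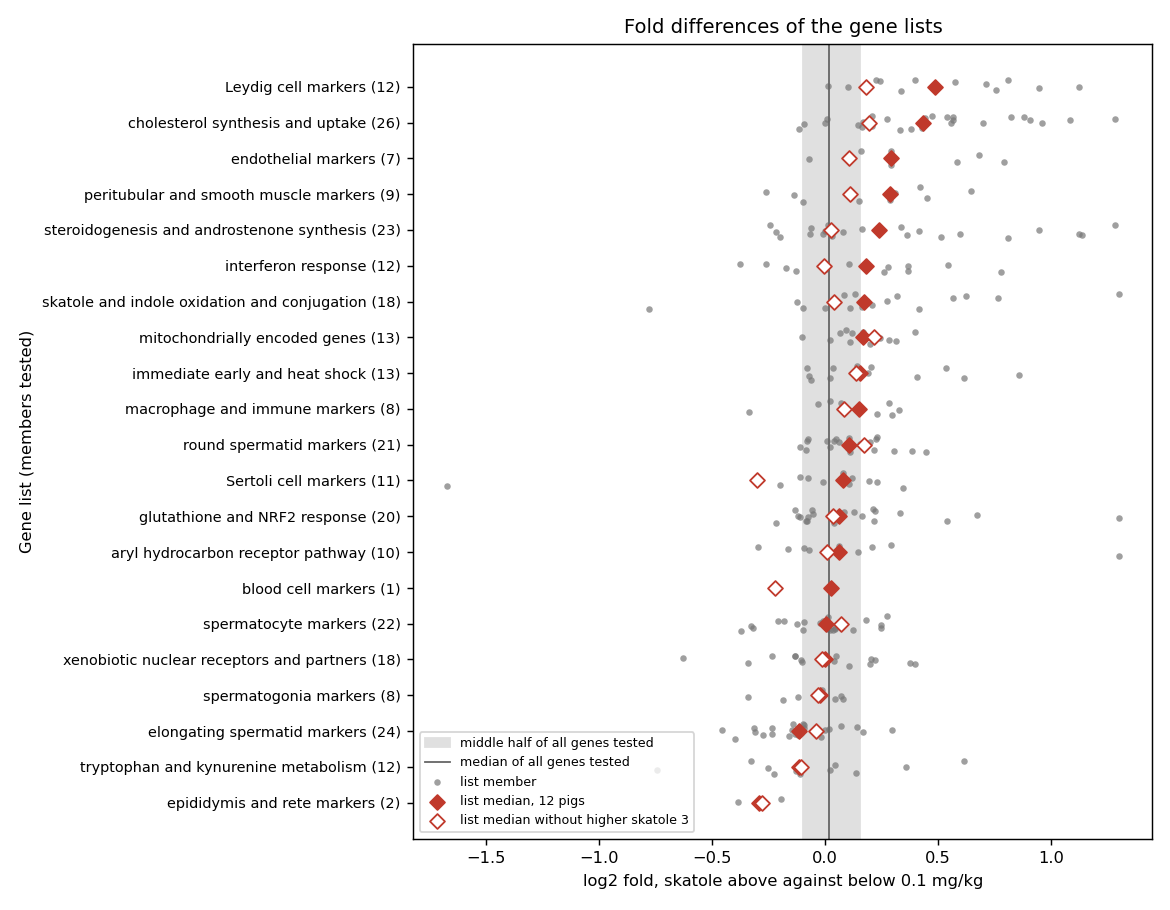
Log2 fold of skatole above against below 0.1 mg/kg for the members of 21 gene lists (grey points), with list medians over 12 pigs (filled) and without the pig with 0.615 mg/kg (open); the grey band runs between the quartiles of all genes tested, from -0.10 to 0.15. The Leydig median moves from 0.49 to 0.18, the cholesterol median from 0.43 to 0.19 and the Sertoli median from 0.08 to -0.30 when that pig is left out.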

How the data were processed

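Testis RNA went through a Qiagen extraction and a TruSeq stranded mRNA library kit, per the labels' protocols. For each pig the authors deposited a table of whole-number read counts per gene, with no normalization. The submitters' processing notes name HTSeq 0.6.0, SAMtools 1.3.1, STAR, cutadapt 1.8.1 and Trimmomatic 0.33. Not given in the sources used here: strand setting, annotation release, genome build. Reads of antisense or overlapping genes may therefore be mixed. The 5 closing rows of each table, reads in no gene among them (21.4% to 35.9%), stayed out of library sizes and tests.

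Skatole, diet, AS group and sow came from the labels. Nothing in the labels says more of the replicates than that each is a pig, and replicate numbers follow accession order and pair nothing. The 31 pairs of libraries within a group all differed by more than sampling noise (chi-square at least 10.6 per degree of freedom). Only the 12 pigs with a skatole value were fitted. The 20 without one were used in 1 alternative.

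Counts were filtered with filterByExpr, scaled with TMM factors (trimmed mean of M values) and tested with edgeR 4.0.16 in R 4.3.3 (quasi-likelihood F test, terms for library set and skatole group or rank, Benjamini-Hochberg over 12209 of 25322 genes). SE was taken as the absolute log2 fold over the root of its F statistic, and levels are TMM-scaled CPM. Spearman's rho used exact permutation p and Pearson's r 100000 permutations, on log2 CPM with a prior count of 2. Tests of label measures enumerated the 792 ways to choose 5 of 12 pigs. Scripts were tested on simulated data. Alternatives covered scaling, filters, DESeq2 1.42.0, limma 3.58.1, further terms, subsets of pigs and each pig left out. Sow as a fixed block, leaving out the libraries with liver transcripts, and the counts per list, were alternatives chosen after seeing the data. Symbols came from a table pairing identifiers with symbols, and 8370 of the genes tested had one.

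The pigs compared and the 21 gene lists were chosen with earlier results of these data known. Genes were named by rule: the 10 of each direction with the smallest p, 18 genes of skatole and androstenone metabolism (11 tested), the 5 highest and 5 lowest rho, and up to 3 members of each list. Some genes that met the rule are not reported here.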

Additional observations from a re-analysis of the deposited data

Results flagged for a closer look

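In 174 sets of values, the levels of each named gene, each list sum and each label measure within a skatole group, 20 held a value that stood apart from its group by Dixon's criterion at 95%. Chance gives about 1 in 20 sets only for normally distributed values. Levels entered as untransformed CPM, the skatole groups were split on skatole itself, and the sets are not independent. The criterion therefore cannot say whether 20 is more than chance gives. The pig with 0.615 mg/kg skatole gave 8 of the 20, starting with that skatole value itself, against 0.24 mg/kg for the next pig. In the same pig stood 2934 CPM of CYP17A1, 2287 CPM of INSL3, 259 CPM of HSD17B3, 269 CPM of EPHX1 and 70.1 CPM of SELENBP1, with next values of 1096, 960.1, 94.3, 117 and 38.7 CPM. Its summed Leydig markers were 6015 CPM and its summed Sertoli markers 4538 CPM, with next values of 2404 and 1951 CPM.

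The lower pig with 0.076 mg/kg, whose library held albumin, gave 5: 74.3 CPM of AMBP, 43.7 CPM of CYP2E1, 19.7 CPM of F2, 6.77 CPM of MX1 and 105 CPM of TAGLN. The next values were 7.3, 8.55, 2.84, 2.19 and 44.9 CPM. The lower pig with 0.033 mg/kg had 67.5 CPM of ESR1 and 571 CPM of FSCN3. The lower pig with 0.061 mg/kg had 6.49 CPM of LHCGR and 113 CPM of MSMO1, and the one with 0.037 mg/kg had 58.7 CPM of PTBP3. The sire breeding value of -0.44 of the lower pig listed at 0 mg/kg was below that of its group, whose next value was 0.08. Summed epididymis and rete markers of 31.4 CPM stood apart in the higher pig with 0.239 mg/kg, where the next value was 16.6 CPM.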

How the results depend on the processing

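The count of genes passing between higher and lower skatole stayed at 0 in the alternatives run, with 3 exceptions. Without a filter on low counts 1 gene passed, ITIH1, a plasma protein gene of the liver, with 353 counts in the library that held albumin and at most 23 in any other. In the deeper libraries alone 1 gene passed, ENSSSCG00000027712, and with sow as a fixed block, added after seeing the data, 3 passed, that gene among them. Along the rank DESeq2 called 1, given above, and the sow block 86, with 1 residual degree of freedom. Leaving out each pig gave 0 to 0 calls between groups, along the rank and by rho. The number at an unadjusted p under 0.05 then ran from 155 to 361 between groups and from 125 to 577 along the rank, lowest in both without the pig with 0.615 mg/kg. With the sow block it was 283 between groups and 1124 along the rank, with carcass weight as a term 641 between groups and 1393 along the rank, and with a threshold of 0.2 mg/kg it was 123. With the sire breeding value as a term 121 were higher and 121 lower, where the split had been 164 and 64.

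Of 60 named genes, 25 changed the sign of their estimate under some alternative, in 57 of 2100 values, and none of the 60 had passed. The cause was not tested. Some alternatives left out pigs, and the sow block draws only on pigs with a litter mate in the comparison. AHR was at -0.0515 with index set and -0.0531 with sow as a random effect, -0.14 in the deeper libraries, -0.33 with sire breeding value, -0.44 at 0.2 mg/kg, -0.11 without the pigs next to the threshold, and -0.10 to 0.32 leaving out each pig. With the sow block CYP2E1 was at 1.58, AHR -1.30, AOX1 -0.186, CYB5A -0.195, HSD17B3 -0.245, LHCGR -0.224, NQO1 -0.0533, SLC6A19 0.718, ESR1 1.49, SUN5 -0.313, UCHL1 0.318, FSCN3 0.683, TNP2 1.09, ND4L -0.346, RIPK3 -0.941, LRRC24 0.316, ACTA1 0.461, SH3RF2 0.308 and AMBP 2.31. In the deeper libraries AOX1 was -0.0532, FMO1 -0.0147, SUN5 -0.34, MX1 -0.0737, RABEP2 -0.0725 and SOAT2 0.0215. With sire breeding value AOX1 was -0.066, FMO1 -0.35, HSD17B3 -0.35, LHCGR -0.15, ESR1 0.000503, PECAM1 -0.13 and TNP2 0.0595. At 0.2 mg/kg FMO1 was -0.37, LHCGR -0.25 and ND4L -0.33. Without the pigs next to the threshold FMO1 was -0.16 and LHCGR -0.11. SRD5A1 was -0.0164 with carcass weight and HSD17B3 -0.0286 with index set. Without both libraries holding liver transcripts CYP2E1 was 0.13 and LHCGR -0.10. Leaving out each pig, CYP2E1 ran from -1.03 to 0.20, HSD17B3 from -0.12 to 0.49, LHCGR from -0.16 to 0.52 and ND4L from -0.0569 to 0.56.

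Leaving out each pig, the difference in carcass weight ran from 4.8 to 8.68 kg (unadjusted exact permutation p = 0.0476 without the lower pig with 0.083 mg/kg) and that in sire breeding value from -0.477 to -0.29 (unadjusted exact permutation p = 0.0182 without the pig with 0.239 mg/kg and 0.0152 without the lower pig listed at 0 mg/kg). The difference in counts in genes ran from -549638 to 2487160, and was -649382 in the shallower libraries and -878677 at 0.2 mg/kg. That in the share of reads in no gene ran from -2.54 to 0.763 percentage points, and was 0.751 in the shallower libraries. No paired analysis was possible because replicate numbers follow accession order, so only sow could serve as a block. With sow as a random effect 0 genes passed. The shallower libraries limit the precision of genes of a few CPM, such as LHCGR, AMBP and LRRC24.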
